A study of Mus musculus with 3 samples.

Results

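The regions described here are the DLX3 ChIP-seq peaks that lay on H3K4me3-marked ends of protein-coding genes in mouse suprabasal keratinocytes. They were chosen by position: a peak of the DLX3 list had to share at least 1 bp with a peak of the H3K4me3 list, and its centre had to lie within 1 kb of either end of a protein-coding gene span of RefSeq on mm10. Of 18087 DLX3 peaks, 4937 met both conditions, which is 27.3% of the list (95% Wilson interval 26.7 to 27.9%, counting error only). A gene is called served here when the centre of such a peak lay within 1 kb of one of its ends, and 5576 of 21900 protein-coding genes, 25.5%, were served. Because positions picked the peaks, the closeness to gene ends and the overlap with H3K4me3 are descriptions of the choice and carry no test.

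The suprabasal keratinocytes came from BALB/c mice, genotype wild type, and were cross-linked with formaldehyde, with no mutant and no treatment in any library. There was 1 library per antibody: anti-Dlx3, anti-H3K4me3 and nonspecific IgG. The IgG library was not analysed here. Both peak lists carry IgG in their names, but no source used here states its role in calling the peaks. The age is adult in the sample labels and neonatal in the series text, and which is right is not known. With 1 library each there is no spread between replicates, so every difference below is a difference between peaks of these libraries, and read depth is unknown. H3K4me3 lay within 1 kb of an end of 7 of 8 keratinocyte marker genes (Krt5, Krt14, Krt1, Krt10, Dsp, Perp and Sfn, but not Trp63), of 0 of 6 immune, 1 of 5 melanocyte, 1 of 4 endothelial, 1 of 3 neuronal and 4 of 5 fibroblast markers. The fibroblast genes marked were Col1a1, Col1a2, Dcn and Pdgfra. The part of other cells in the peak lists was not tested.

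DLX3 is a homeodomain transcription factor of the distal-less family that is expressed in the suprabasal layers of the epidermis, in hair follicles, in teeth and in bone, and homeodomains of this family bind DNA at a short core sequence rich in A and T. H3K4me3, the trimethylated lysine 4 of histone H3, marks nucleosomes around the start sites of active and poised genes and is usually strongest just inside the transcribed region. Many mammalian promoters are rich in CpG dinucleotides and lack a TATA box, and pairs of genes often share one such promoter, from which they are read in opposite directions.

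Promoter sequence was read to show what lies under these peaks, at genes whose RefSeq promoter window is set exactly on the start of the gene span and holds the centre of the peak. Among these, the 5 genes with the highest scores are shown, then the 3 highest from the lists of desmosome, tight junction, keratinocyte transcription factor, cornified envelope and keratin genes. Stronger start peaks outside this choice, such as those of Klf3, Spen, Phf12 and Cyth1, are not shown. The score is the authors' value for each peak, higher for stronger enrichment, and it is used only to rank peaks within a list. The sequences are the 250 bases before the annotated start of 8 genes, from RefSeq on GRCm38.p6 (mm10), 5′ to 3′ on the strand of the gene. Capitals mark any match to 12 short motifs searched on both strands, listed with the promoter results further on. The letters are those of the reference strain, not of BALB/c.
Atf3, chr1:191183334-191183583, minus strand: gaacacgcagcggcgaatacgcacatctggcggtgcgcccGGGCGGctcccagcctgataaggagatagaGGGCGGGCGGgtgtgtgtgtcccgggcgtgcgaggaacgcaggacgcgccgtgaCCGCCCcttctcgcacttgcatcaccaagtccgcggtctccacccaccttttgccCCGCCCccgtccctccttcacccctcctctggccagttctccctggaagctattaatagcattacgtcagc
Gpx1, chr9:108338830-108339079, plus strand: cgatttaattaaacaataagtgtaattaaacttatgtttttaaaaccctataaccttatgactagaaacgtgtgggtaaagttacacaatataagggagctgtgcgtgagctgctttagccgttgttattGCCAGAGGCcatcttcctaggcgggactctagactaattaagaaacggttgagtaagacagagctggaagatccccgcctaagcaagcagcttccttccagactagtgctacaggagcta
Rasgef1b, chr5:99252928-99253177, minus strand: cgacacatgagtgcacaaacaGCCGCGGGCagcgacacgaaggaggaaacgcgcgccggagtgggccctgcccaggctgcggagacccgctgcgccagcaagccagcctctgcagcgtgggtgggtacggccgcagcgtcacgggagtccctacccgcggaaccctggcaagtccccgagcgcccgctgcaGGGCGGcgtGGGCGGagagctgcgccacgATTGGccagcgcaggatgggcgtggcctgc
Sde2, chr1:180850901-180851150, plus strand: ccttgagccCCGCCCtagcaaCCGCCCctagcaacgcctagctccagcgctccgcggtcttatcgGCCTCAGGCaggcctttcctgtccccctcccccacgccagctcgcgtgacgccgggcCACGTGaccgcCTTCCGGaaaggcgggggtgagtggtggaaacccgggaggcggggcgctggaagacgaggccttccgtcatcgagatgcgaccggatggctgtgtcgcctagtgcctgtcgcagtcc
Tmem170b, chr13:41605632-41605881, plus strand: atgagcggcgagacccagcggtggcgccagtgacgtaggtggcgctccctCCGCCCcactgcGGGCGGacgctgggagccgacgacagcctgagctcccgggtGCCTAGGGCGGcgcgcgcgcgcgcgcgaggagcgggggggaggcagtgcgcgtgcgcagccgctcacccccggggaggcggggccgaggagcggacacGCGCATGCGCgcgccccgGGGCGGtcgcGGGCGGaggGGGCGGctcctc
Klf4, chr4:55532476-55532725, minus strand: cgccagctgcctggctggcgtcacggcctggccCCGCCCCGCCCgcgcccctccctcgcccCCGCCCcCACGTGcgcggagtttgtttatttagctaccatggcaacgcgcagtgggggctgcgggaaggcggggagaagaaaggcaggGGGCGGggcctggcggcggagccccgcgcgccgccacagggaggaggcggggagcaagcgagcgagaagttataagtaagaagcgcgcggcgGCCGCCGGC
Cebpa, chr7:35119043-35119292, plus strand: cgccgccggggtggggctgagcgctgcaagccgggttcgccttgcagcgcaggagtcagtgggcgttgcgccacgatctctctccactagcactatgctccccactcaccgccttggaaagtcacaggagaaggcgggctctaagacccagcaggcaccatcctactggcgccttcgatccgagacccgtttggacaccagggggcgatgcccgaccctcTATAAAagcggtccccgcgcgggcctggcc
Msx2, chr13:53472781-53473030, minus strand: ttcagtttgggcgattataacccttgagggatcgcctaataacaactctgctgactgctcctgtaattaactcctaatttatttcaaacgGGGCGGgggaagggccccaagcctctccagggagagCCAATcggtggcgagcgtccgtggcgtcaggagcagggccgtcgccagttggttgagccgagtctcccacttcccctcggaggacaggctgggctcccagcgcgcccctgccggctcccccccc

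The GC box GGGCGG was the motif most often matched in these windows, with 5 matches before Atf3, a stress-induced AP-1 family factor, 6 before Tmem170b and 4 before Klf4, a barrier transcription factor. Tmem170b also held 2 overlapping matches to the NRF1 core GCATGCGC, 1 on each strand. Cebpa, which encodes a factor of late keratinocyte differentiation, held a TATAAA and no other match. None of the 8 windows held the homeodomain core in the spelling TAATTG, while TAATTA, another spelling that was not among the 12 motifs and was counted later, occurred 3 times before Gpx1 and 1 time before Msx2. A match is a description of the letters, not a binding site, and no match says only that these letters are not in this window.

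The peaks sat on gene starts. The direction of the nearest gene was known for 4024 of the 4937 peaks, and for 3917 of these, 97.3% (96.8 to 97.8%), the nearest end was the start. The rule treats both ends alike. DLX3 peaks at gene ends without H3K4me3 had a start as the nearest end in 82 of 216 cases, 38.0% (31.8 to 44.6%), whereas H3K4me3 peaks at gene ends without a DLX3 peak had one in 4300 of 4498, 95.6% (94.96 to 96.2%). The preference for starts was therefore also present at H3K4me3 peaks that lacked DLX3.

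At the starts, DLX3 peaks were centred on the start itself. The median signed offset of the centre was -4 bp, with quartiles at -95 bp upstream and 101 bp into the gene. Centres lay upstream in 1995 peaks, inside the gene in 1905 and exactly at the start in 17, and 87.7% of the peaks (86.7 to 88.7%) covered the start. H3K4me3 peaks at the same starts lay further into the genes: their centres were at a median of 393 bp (quartiles 163 and 688 bp), and 87.0% were downstream of the start. Those H3K4me3 peaks reached a median of 879 bp upstream and 1652 bp downstream of the start, so the DLX3 peak lay off their centre, on the upstream side. H3K4me3 peaks without DLX3 were also shifted into the gene, by a median of 318 bp.

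**Figure D1:**
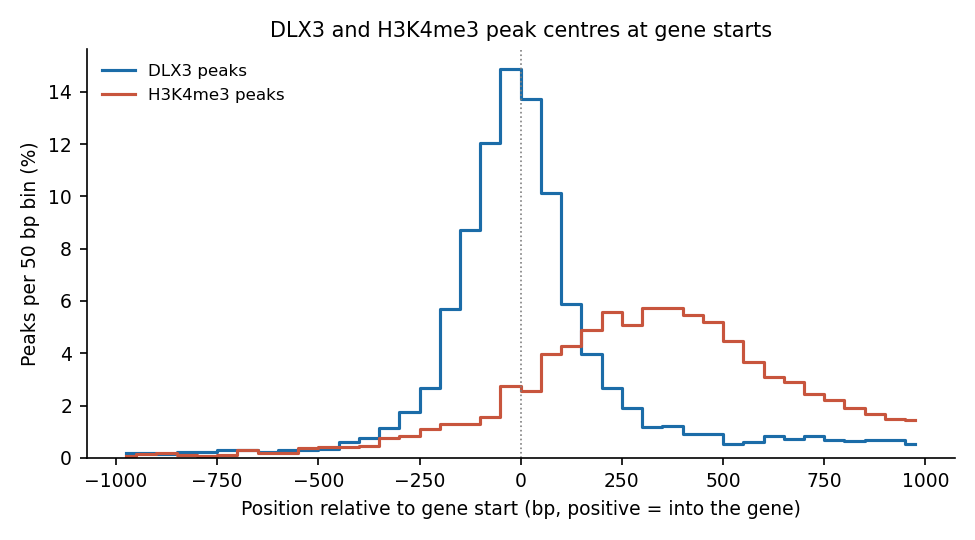
Position of peak centres relative to the gene start (x axis, bp, positive values inside the gene) for the 3917 DLX3 peaks nearest to a start and for the H3K4me3 peaks they overlap, as the percentage of the 3917 in each 50 bp bin (y axis). The DLX3 centres gather around the start with a median of -4 bp, while the H3K4me3 centres spread into the gene around a median of 393 bp, and H3K4me3 centres beyond 1 kb are outside the plot.

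Over all 4937 peaks, the distance from the centre to the nearest gene end had a median of 102 bp (quartiles 44 and 214 bp), well inside the limit of 1 kb. Within 100 bp lay 49.7% of them, within 200 bp 73.2% and within 500 bp 89.9%. The scarce distant peaks were unevenly placed: 259 start peaks (6.61%) were centred more than 500 bp inside the gene, and 92 (2.35%) more than 500 bp upstream. Peaks of the outermost bin, from 501 to 1000 bp, had a median score of 80.02 (n = 501), below the 92.53 of peaks within 100 bp (n = 2454), while the bins between had 102 (101 to 250 bp, n = 1426) and 100 (251 to 500 bp, n = 556). The score thus did not fall steadily with distance, and across the 4937 peaks Spearman's rho of score and distance was 0.020. The peaks nearest the limit were those of Mfsd12 at 995 bp, Reep4 at 998 bp and Ankrd11 at 1000 bp on the inside, with scores of 62.9, 209.42 and 67.24, and those of Natd1 at 1001 bp, Hbp1 at 1002 bp and Sp3 at 1004 bp on the outside, with scores of 79.98, 284.3 and 80.56.

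The median width was 687 bp (quartiles 560 and 845 bp, range 232 to 5044 bp), and the median score was 94.15 (quartiles 69.35 and 142.05, range 50.02 to 2523.19). DLX3 peaks on H3K4me3 away from coding gene ends were alike in both measures, with a median width of 687 bp and a median score of 93.1 (n = 2678). DLX3 peaks without H3K4me3 were narrower and lower, at 567 bp and 69.81 at gene ends (n = 272) and 590 bp and 77.0 elsewhere (n = 10200). The middle ranges of all these classes overlapped. Width and score rose together across peaks, with rho = 0.47 for the 4937 peaks and 0.49 for the 10200 peaks that were neither marked nor at gene ends. All peaks of a class come from 1 library, and a caller's score depends on peak width, so these correlations are descriptions.

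**Figure D2:**
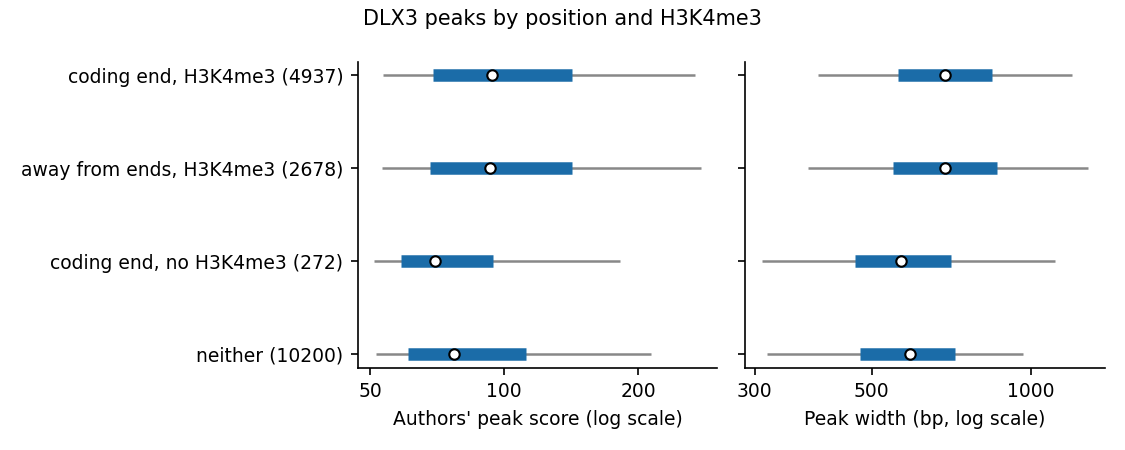
Authors' peak score (left, log scale) and peak width in bp (right, log scale) of DLX3 peaks in 4 classes, with the number of peaks in brackets; circles are medians, thick bars the quartiles and thin lines the 5th to 95th percentiles. Both H3K4me3-marked classes have medians near 94 and 687 bp, above the unmarked classes, and all ranges overlap.

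Strong DLX3 peaks lay at these gene ends more often than weak ones. The share rose from 18.02% (16.3 to 19.9%) in the decile of DLX3 peaks with the lowest scores to 37.0% (34.8 to 39.2%) in the decile with the highest, beside 27.3% for the whole list, and 50 of the 100 highest DLX3 peaks were among them. The strongest was at Hspa1a, an inducible heat shock protein 70 chaperone, on chromosome 17 from 34967220 to 34970200, with a score of 2523.19. It was centred 649 bp beyond the finish of the gene, on an H3K4me3 peak with a score of only 69.67. The peak at its near-identical neighbour Hspa1b, chromosome 17 from 34954633 to 34957271, scored 1239.99 and lay 477 bp beyond the finish. The sources used here do not say how reads that map equally to both copies were treated, so the values of both genes are uncertain.

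Second in score was the peak of Egr1, an immediate-early zinc finger factor, with 1441.38. At 5044 bp (chromosome 18, 34861759 to 34866802) it was also the widest of the 4937. Mknk2, a kinase of the translation factor eIF4E, followed with 900.44 and a 4174 bp peak centred 51 bp inside the finish (chromosome 10, 80663283 to 80667456), again on a weak H3K4me3 peak of score 61.65. Atf3 had 825.38 at 192 bp upstream of the start, and Klf3, a Krüppel-like repressor that shared its peak with Gm38457, had 723.53 at 300 bp upstream. Spen, a co-repressor in Notch signalling, had 702.27, Phf12, a subunit of a histone deacetylase complex, 669.35, Pnrc1, a nuclear receptor coregulator, 650.2 and Gpx1, a glutathione peroxidase, 615.35. Of the 10 highest peaks, 6 were nearest to a start, 3 to a finish and 1 (Egr1) to an end whose direction was not in the tables used. The next widest peaks were the 3955 bp peak at Hsp90ab1 and Slc35b2, the 3382 bp peak at Jun and the 3207 bp peak at Gm20783.

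Only 107 of the 4024 peaks of known direction were nearest to a gene finish. Of these, 34 also lay within 1 kb of another start or of an end of unknown direction, which left 73 at a finish alone. The 73 had a median score of 109.29 (quartiles 75.08 and 232.87), beside 94.92 for start peaks, and their genes had a median length of 4291 bp. A second DLX3 peak stood at the start of the same gene in 39 of the 73. Finish peaks were 4 of the 20 and 12 of the 100 highest peaks of known direction, beside 107 of all 4024.

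AP-1 subunits, other immediate-early genes and chaperones supplied 13 of the 73 finish peaks and 11 of the 20 with the highest scores, while their 45 served genes are 0.81% of all 5576. These 13 had a median score of 353.23 and a median width of 2237 bp, and the other 60 had 104 and 716 bp. Besides Hspa1a and Hspa1b, they included Fosb with 569.3, centred 812 bp inside the finish, Jun with 460.99 (598 bp inside), Zfp36, which encodes a protein that destabilises cytokine mRNAs, with 456.19 (7 bp beyond), Hspb1 with 366.43 and Hspa5 with 353.23. In several of these short genes DLX3 peaks covered most of the span: 99.7% of Egr1 (3750 bp long), 86.4% of Jund (2878 bp), 86.4% of the immediate-early gene Ier2 (1522 bp), 82.2% of the co-chaperone gene Dnajb1 (4479 bp), 81.9% of Jun (3187 bp) and 81.8% of Junb (1840 bp). These 3 gene lists were examined together after their values had been seen.

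Most peaks served 1 gene. Of the 4937, 4025 served 1 gene, 896 served 2 and 16 served 3, so that 912 peaks, 18.5% (17.4 to 19.6%), lay within 1 kb of the ends of several genes. Directions were known for all but 209 of the 896. Of the rest, 530 had their centre within 1 kb of both starts of genes read in opposite directions, here called divergent pairs. Another 7 lay at facing finishes and 150 in other arrangements. At the divergent pairs the starts were a median of 51 bp apart (quartiles -65.5 and 143 bp, negative where the genes overlap). The centre fell between the starts in 210 of the 530, 39.6%. Divergent peaks were little stronger or wider than start peaks of a single gene, with median scores of 99.27 and 93.98 and median widths of 704 and 687 bp (n = 530 and 3177).

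Divergent promoters made up more of the served starts than of other marked starts. Another coding gene started in the opposite direction within 1 kb upstream at 713 of 4427 served starts, 16.1% (15.1 to 17.2%), at 395 of 5698 H3K4me3-marked starts without a DLX3 peak, 6.93% (6.30 to 7.62%), and at 6.60% of all 17492 starts of known direction. This comparison was added after the pairs had been counted. Both genes of a pair count when 1 peak serves them, and the part of this in the difference was not tested.

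Most served genes had a single peak. There were 5304 genes with 1 peak, 257 with 2, 13 with 3 and 2 with 4, and neighbouring peaks of a gene were a median of 1295 bp apart (quartiles 786 and 6730 bp). The 272 genes with several peaks were shorter, at a median of 12030 bp, than the 5304 with 1 peak, at 22264 bp. Of the 229 with known direction, 121 had peaks at both start and finish. Ddah2, which encodes a dimethylarginine hydrolase, and Lgals7, which encodes galectin-7 of stratified epithelia, had 4 peaks each. Those of Ddah2 had scores from 50.03 to 71.2, all on 1 H3K4me3 peak of 3466 bp, and those of Lgals7 had 54.68, 66.83, 101.71 and 148.27, all on 1 of 5058 bp. Among the genes with 3 peaks, Cbx3, a heterochromatin protein 1 gene, had scores from 54.39 to 71.43 at its start, Coq8b, a gene of coenzyme Q synthesis, had 122.49 near one end and 69.62 and 104.71 near the other, and Diaph3, a formin gene, had 52.07, 60.11 and 84.21 at its start.

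The served starts carried wider H3K4me3 than the other marked starts. Of 17492 coding genes with known direction, 10136 had H3K4me3 within 1 kb of the start, and 4427 of these, 43.7% (42.7 to 44.6%), were served. Counted at either end, the share of marked coding genes that were served was 42.9%. H3K4me3 peaks at served starts had a median width of 2670 bp (quartiles 2148 and 3391 bp) and a median score of 1756.73, and those at marked starts without DLX3 had 2147.5 bp (1681 and 2778.5 bp) and 900.59. The quartile ranges of width overlapped. The served share was 11.6% (9.81 to 13.8%) in the decile of marked starts with the narrowest H3K4me3, at a median of 1234 bp, 61.0% (58.0 to 64.0%) in the next to widest decile, at 3588 bp, and 59.0% (55.9 to 62.0%) in the widest, at 4724 bp. A wider H3K4me3 peak offers more room for an overlap, and how far this sets the relation was not tested. Gene length differed little, at medians of 22438 bp for served starts and 23982.5 bp for marked starts without DLX3.

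**Figure D3:**
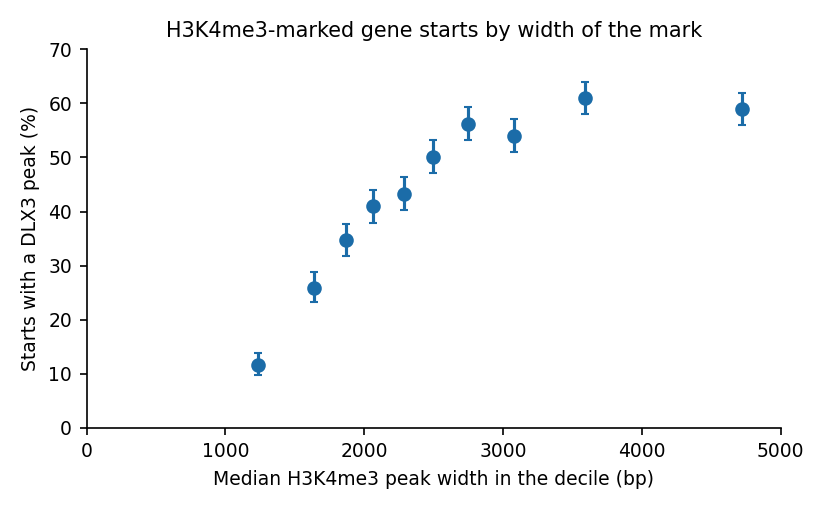
Share of H3K4me3-marked gene starts with a DLX3 peak (y axis, percent, bars are 95% Wilson intervals) in 10 groups of equal size ordered by the width of the H3K4me3 peak (x axis, median width of each group in bp). The share climbs from 11.6% at 1234 bp to about 60% at 3588 and 4724 bp.

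Looked at from the H3K4me3 list, 4762 of 16735 peaks held one of these DLX3 peaks. A single one was held by 4598 of them, 153 held 2, 9 held 3 and 2 held 4. The DLX3 peak lay wholly inside H3K4me3 in 95.4% of cases (94.8 to 95.95%), although 1 shared base was enough for the choice. DLX3 score was only loosely related to the mark beneath it, with rho = 0.17 for H3K4me3 width and 0.19 for H3K4me3 score over 4937 peaks, and DLX3 width with H3K4me3 width gave 0.27.

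Promoter windows of served genes were rich in G, C and CpG. The windows ran from 250 bases before to 50 after the start and could be used for 15752 genes: 4240 with a served start, 5161 with H3K4me3 at the start and no DLX3 peak, and the rest. Median G+C content was 63.3% at served starts, 61.0% at marked starts without DLX3 and 56.3% over all windows, and the median number of CpG dinucleotides was 24, 20 and 14. The 12 motifs were the homeodomain core TAATTG, AP-1 TGANTCA, the cyclic AMP response element TGACGTCA, the CCAAT box CCAAT, the TATA box TATAAA, the GC box GGGCGG, ETS CCGGAAG, NRF1 GCATGCGC, YY1 AAGATGGCG, the E-box CACGTG, AP-2 GCCNNNGGC and E2F TTTGGCGC, each on both strands. Matches to different motifs can overlap, as those of AP-2 and the GC box do in runs of G and C, and each was counted by itself.

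The homeodomain core TAATTG had a low share in served and in other marked windows, with overlapping intervals. It occurred in 180 of 4240 served windows, 4.25% (3.68 to 4.89%), in 4.03% (3.53 to 4.60%) of marked windows without DLX3 and in 7.05% of all windows. Among served windows, the core was in 4.40% (2.72 to 7.02%) of those under the decile of peaks with the highest scores and in 5.29% (3.41 to 8.12%) under the decile with the lowest. These intervals overlapped as well. At like CpG content the core was more frequent in served windows in 1 of 4 quartile groups, the one from 4 to 14 CpGs, with 10.1% (7.65 to 13.1%) against 5.87% (4.72 to 7.29%), and the intervals of the other groups overlapped. The spelling TAATTA, added after the data had been seen, was in 1.75% (1.39 to 2.19%) of served windows, 2.52% (2.13 to 2.98%) of marked windows without DLX3 and 4.77% of all windows, and its intervals overlapped in every CpG group. The AP-1 motif was at 4.32%, 4.05% and 6.996% in served windows, marked windows without DLX3 and all windows, and the CCAAT box at 39.3%, 38.8% and 39.4%. Each was apart in 1 CpG group: AP-1 from 14 to 24 CpGs, with 5.35% (4.36 to 6.55%) of served and 3.45% (2.74 to 4.34%) of other marked windows, and the CCAAT box in the group with most CpGs, with 34.4% (32.4 to 36.4%) and 29.7% (27.6 to 31.9%).

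Other motifs differed in share between the groups. The GC box was in 75.1% of served windows (73.8 to 76.4%), 64.6% of marked windows without DLX3 (63.3 to 65.9%) and 46.7% of all windows, and in 84.3% of served windows under the highest decile of peaks against 71.0% under the lowest. NRF1, a factor of nuclear genes for mitochondrial proteins, had its core in 8.70% (7.89 to 9.59%), 3.20% (2.75 to 3.71%) and 3.73%, and in 14.0% under the highest decile against 6.13% under the lowest. ETS was in 22.0%, 15.5% and 12.1%, but in 17.6% (14.02 to 21.8%) under the highest decile against 23.1% (19.1 to 27.75%) under the lowest. The same 3 shares were, for the E-box, 12.1%, 9.26% and 8.01%, for AP-2 27.9%, 25.6% and 19.7%, for the cyclic AMP response element 4.25%, 2.89% and 2.38%, and for E2F 1.25%, 0.81% and 0.67%. YY1 was in 4.17% of served and 2.50% of other marked windows. The intervals of served and other marked windows overlapped for AP-2 and E2F. The TATA box ran the other way, with 5.05%, 7.67% and 13.7%. Base composition moves with these shares. Within 4 groups of like CpG content, the intervals of served and other marked windows were apart in 3 groups for NRF1, in 2 for ETS, and in 1 each for YY1 and the cyclic AMP response element, each time with the higher share in served windows. They overlapped in all 4 groups for the GC box, the TATA box, the E-box, AP-2 and E2F. The groups hold CpG content only roughly alike, since the top one ran from 24 to 63 CpGs in served windows. The lowest group had only 34 served windows, so its wide intervals could hardly come apart for any motif. In the group with most CpGs, for example, the NRF1 core was in 9.52% (8.34 to 10.8%) of served and 3.66% (2.87 to 4.65%) of other marked windows, ETS in 23.2% and 16.7%, the GC box in 86.4% and 83.6%, and the TATA box in 2.98% and 4.06%.

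**Figure D4:**
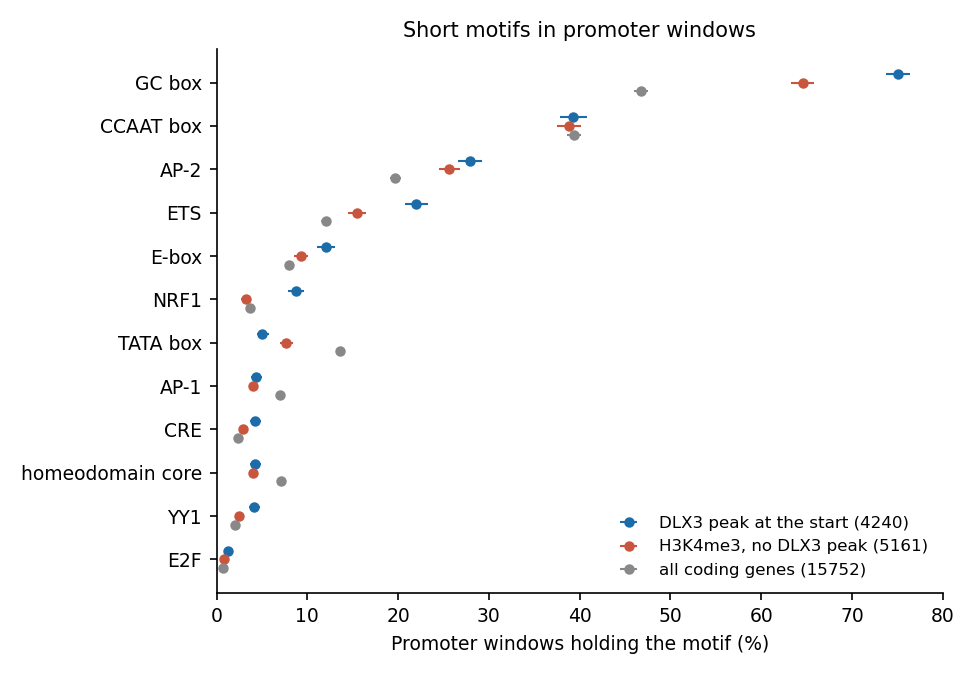
Share of promoter windows that hold each of 12 short motifs on either strand (x axis, percent, bars are 95% Wilson intervals) for served starts, H3K4me3-marked starts without a DLX3 peak and all coding genes. The GC box, ETS and NRF1 points of served starts lie to the right of the other groups, the TATA box point lies to the left, and the homeodomain core is near 4% in both marked groups.

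The served genes were read through 32 gene lists, beside 25.5% of all coding genes and 42.9% of coding genes with H3K4me3 at an end. The lists differed in H3K4me3 width at their marked genes. Its median was 5578 bp for keratinocyte transcription factors, 6604 bp for AP-1 subunits and 5157 bp for other immediate-early genes. It was 4037 bp for adherens junctions and 2126 bp for mitochondrial ribosomal proteins, beside 2400 bp for all marked coding genes. The part of this width in the served shares was not tested. Junction genes, which hold suprabasal cells together, were served in 12 of 16 cases for the desmosome, 9 of 14 for the adherens junction and 8 of 15 for the tight junction. Counted only at starts of known direction, which drops genes whose strand is not in the tables, 3 desmosomal and 4 tight junction genes were served, and among DLX3 peaks at or above the median score 4 adherens and 3 tight junction genes. The highest desmosomal peaks were at Perp, a tetraspan membrane protein, with 410.54 at 60 bp from an end, Jup, which encodes plakoglobin, with 256.26 at 21 bp upstream of its start, and Dsc1, a desmosomal cadherin, with 243.49. Adherens junctions were led by Ctnnb1, which encodes β-catenin, with 397.21, Vcl, which encodes vinculin, with 196.14 and the cell adhesion gene Nectin2 with 148.8 near its finish. Tight junctions were led by the claudin gene Cldn8 with 198.77, Marveld2, which encodes tricellulin, with 103.88 and Cldn4 with 87.43.

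Keratinocyte transcription factors were served in 20 of 35 cases (10 at starts of known direction), led by Klf3 with 723.53, Ovol1, a zinc finger factor of epidermal differentiation, with 386.36 and the Notch target Hes1 with 296.34. Trp63, the p63 gene, was not served. It had no H3K4me3 within 1 kb of the ends of its span, and the DLX3 peak centre nearest to an end was 20307 bp away. The span is long, from 25683763 to 25892088 on chromosome 16. Starts and peaks inside it, far from both ends, are not covered by these values. Dlx3 itself was marked by H3K4me3 but not served. The nearest DLX3 peak, with a score of 96.14, was centred 1474 bp from its end, beyond the 1 kb limit, and did not overlap H3K4me3. Notch pathway genes were served in 13 of 26 cases, with Spen, Hes1 and the Notch sheddase gene Adam10 (240.14) in front. JAK, STAT and Socs genes were served in 15 of 22. Stat3, a cytokine-activated factor, had 455.11 at 116 bp upstream of its start, the SUMO ligase gene Pias1 had 293.1 and the feedback inhibitor Cish 162.83, while the feedback inhibitor Socs3 had a weak peak of 67.28 centred 965 bp inside the gene.

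Structural genes of the cornified layer had low counts. The count was 6 of 30 for the cornified envelope, where Padi1, a peptidylarginine deiminase, had 288.63 near its finish, the protease gene Asprv1 191.75 and the transglutaminase gene Tgm5 93.39. It was 3 of 14 for epidermal keratins, namely Krt17 with 470.51, Krt80 with 159.64 and Krt79 with 69.72. With centres within 500 bp, with strong H3K4me3, with strong DLX3 peaks or with starts only, 3 envelope genes were served, and starts only left 1 keratin gene. A limit of 2 kb gave 7 envelope and 5 keratin genes, with 6092 coding genes served in all. The keratin count thus depended on the limit. The Wilson intervals of both lists include the 25.5% of all coding genes. Barrier lipid enzymes were served in 10 of 24 cases, led by the serine palmitoyltransferase genes Sptlc2 (202.23) and Sptlc1 (163.46) and the lipase cofactor gene Abhd5 (201.72). Only 14 of the 30 envelope genes and 9 of the 14 keratin genes had H3K4me3 at an end, and 6 and 3 of those were served. Among marked genes the served shares were thus 42.9% for the envelope and 33.3% for keratins, beside 42.9% of all marked coding genes. The low envelope count therefore went with few marked genes, and 9 marked keratin genes are too few to read. Several of the best known keratinocyte genes had a peak outside the limit, each on H3K4me3. Measured to the nearest end of the gene span, its centre was 1004 bp away for Krt5 (score 105.22) and 1663 bp for Krt14 (100.53). It was 2109 bp away for Krt10 (69.06) and 1091 bp for Lor (76.44). The peaks of Krt14, Krt10 and Lor lay inside the gene, and that of Krt5 lay outside it. Krt1, Ivl and Flg had no DLX3 peak centre nearer to an end than 42867, 13284 and 73587 bp.

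Stress and early response genes had the highest scores and, in chaperones, the highest served share. Chaperones and heat shock genes were served in 26 of 30 cases, 86.7% (70.3 to 94.7%), with a median score of 202 for the best peak of each gene, and besides Hspa1a and Hspa1b the highest was Hsp90aa1 with 507.41. AP-1 subunits were served in 5 of 10, which were Atf3, Jund (571.98), Fosb, Jun and Junb (332.59), and their median score of 569 was the highest of the 32 lists. The Wilson interval of this share, 23.7 to 76.3%, includes the 25.5% of all coding genes and the 42.9% of marked ones. With a limit of 2 kb, 8 of the 10 were served. Other immediate-early genes were served in 14 of 20, led by Egr1, Zfp36 and the matricellular gene Ccn1 (325.91). These lists together had 45 of 60 genes served (Wilson interval 62.8 to 84.2%). Several peaks stood at 18 of the 45, 40.0% (27.0 to 54.5%), beside 272 of all 5576 served genes, 4.88%. Some of the 18 are short, such as Ier2 with 1522 bp and Junb with 1840 bp, beside a median of 22264 bp for genes with 1 peak. The part of gene length in this contrast was not tested. The lists together supplied 6 of the 20 highest and 10 of the 20 widest peaks.

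Other regulatory lists were served in 45.0 to 63.6% of cases, beside 25.5% of all coding genes. Among their marked genes the share was 47.4 to 67.7%, beside 42.9% of all marked coding genes. NF-kB pathway genes were served in 12 of 20 cases (Nfkbia, the inhibitor gene, 339.16 near its finish, and the kinase genes Map3k14, 161.45, and Map3k7, 145.73), and circadian clock genes in 10 of 20 (Bhlhe40, 406.81, Nr1d2, 347.15, and Per1, 328.11). Genes of p53 and growth arrest were served in 15 of 27 (the 14-3-3σ gene Sfn, 214.66, the repair gene Xpc, 201.2, and the kinase gene Plk3, 184.28). Cell cycle and replication genes were served in 18 of 40 (Cdk4, 475.04, the survivin gene Birc5, 397.12, and the licensing factor gene Cdt1, 208.64), and histone methylation enzymes in 21 of 33 (Kmt2e, 218.93, Ezh1, 211.22, and Ehmt1, 199.01).

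Housekeeping lists were served at about the rate of marked genes or above it. The counts were 29 of 46 for translation initiation factors (Eif5a, 324.41, Eif2s1, 269.61, and Eif4h, 209.95), 13 of 20 for nuclear pore proteins (Nup50, 400.91, Nup93, 341.25, and Nup153, 310.38) and 18 of 30 for Mediator subunits (Med26, 345.87, Med31, 192.77, and Med18, 159.79). They were 7 of 12 for RNA polymerase II subunits (Polr2i, 219.55, Polr2a, 151.69, and Polr2b, 133.12) and 11 of 20 for aminoacyl-tRNA synthetases (Yars, 440.53, Gars, 188.11, and Cars, 185.5). Mitochondrial lists had 21 of 37 for respiratory chain complex I (Ndufa9, 293.55, Ndufs7, 204.35, and Ndufa13, 184.16) and 41 of 78 for mitochondrial ribosomal proteins (Mrpl45, 455.23, Mrpl2, 264.08, and Mrpl54, 239.15). Proteasome subunits had 22 of 39 (Psmd3, 214.28, Psma2, 145.13, and Psmc6, 142), and cytosolic ribosomal proteins 37 of 83. Many of the Wilson intervals of single lists include 42.9%, and with lists of this size small differences between them cannot be read.

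Markers of other cells were not served. Of 79 genes on the lists for melanocytes (12), immune cells (19), fibroblasts (16), endothelium (16) and neurons (16), 0 had one of these peaks, which allows a share of up to 3.80%. H3K4me3 was present at an end of 33 of the 79, and 0 of 33 allows up to 9.09%. With a limit of 2 kb in place of 1 kb, 1 of the 19 immune markers was served. Their H3K4me3 peaks were narrower and weaker than those of all 12988 marked coding genes, with a median width of 1826 against 2400 bp and a median score of 225 against 1281. Olfactory receptor genes, which act in the nasal epithelium, had 0 of 1110 served, and 1 of them had H3K4me3.

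**Figure D5:**
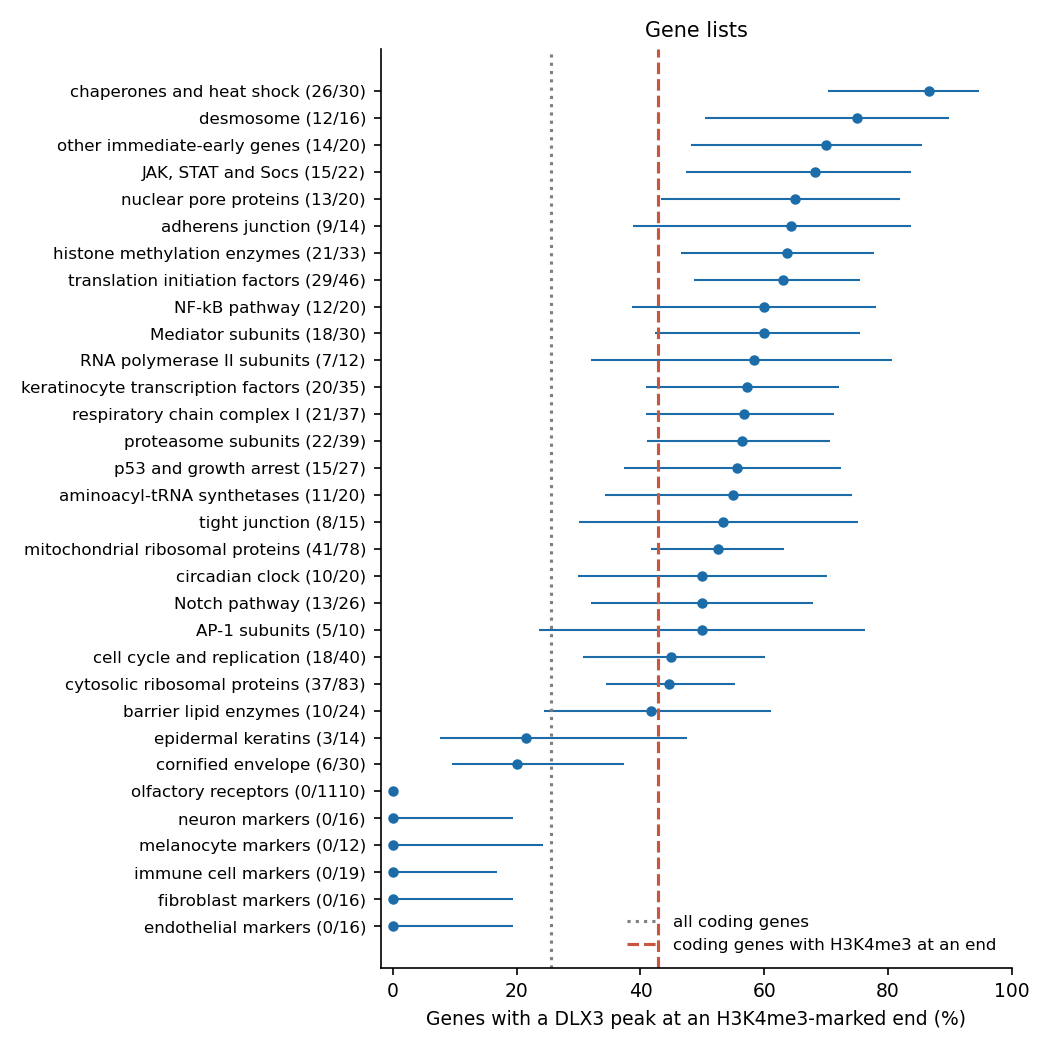
Share of the genes of each of 32 lists that were served (x axis, percent, points with 95% Wilson intervals; served and listed genes in brackets), with the share of all coding genes, 25.5%, as a dotted line and of H3K4me3-marked coding genes, 42.9%, as a dashed line. Chaperones stand highest with 26 of 30, keratins and cornified envelope genes lie below the dotted line, and the lists for other cell types and olfactory receptors are at 0.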

How the data were processed

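Peak lists of the DLX3 and H3K4me3 libraries (1 library each) were read as deposited: chromosome, start, end and, for each peak, a score that the authors' peak caller gave it. Scores lay between 50.01 and 3100 (DLX3) and between 50 and 3233.06 (H3K4me3). Per the submitters' processing notes, Bowtie 1.1.2, MACS 1.4.2 and HOMER were used with mm10; their roles and settings are unstated in those notes. Lists were made per library and nothing was pooled. Scores depend on depth and width and were used within a list only.

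Gene spans came from a RefSeq table of GRCm38.p6 (49997 genes, 21900 protein-coding). It gives no exons, so intronic and exonic positions were not told apart. Strand came from the RefSeq promoter table and matched 17492 coding genes; 15752 windows whose start lay within 1 kb of the span start were used. Positions count from 1. Overlaps, 95% Wilson intervals and Spearman correlations were computed in Python 3.11.15 with pandas 2.3.3, numpy 2.4.6 and scipy 1.17.1. Overlaps, distances to gene ends and Wilson intervals were checked on simulated data, and the correlations were not. For a count of 0 the limit is 3 counts of the total.

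The peaks, lists, motifs and comparisons were chosen with earlier results of these data known, so no test was run. Genes were named by rule: those of the 10 highest and 5 widest peaks, the 5 with most peaks, the 3 peaks on each side of the limit, the 3 highest of each list, and 12 skin genes always; others were named after their values were seen. Single genes of the cytosolic ribosomal list are not reported here. One immune symbol was not matched.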

Additional observations from a re-analysis of the deposited data

How the results depend on the processing

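There was 1 library per antibody, so nothing shows how far peaks, scores or offsets would vary in another library, and the depth that limits weak peaks is unknown. No paired analysis was possible because each antibody has 1 library. Of 9 alternatives, demanding that at least 50% of the peak or its centre lie inside H3K4me3 moved none of the main values. The median score as a minimum for DLX3 left 2929 peaks and 3399 genes, with a median score of 130, width of 757 bp, H3K4me3 width of 2730 bp and rho of score and width of 0.36. The top 20% by score left 1277 peaks and 1488 genes, with a distance of 115 bp, score of 191, width of 848 bp, H3K4me3 width of 2860 bp, rho of 0.30 and start share of 96.2%. With H3K4me3 peaks at or above their median score, the score was 97.3, the width 697 bp, the H3K4me3 width 2746 bp, the share at 2 or more genes 19.6% and the start share 98.0%. Limits of 500 bp and 2 kb gave distances of 87 and 121 bp, shares at 2 or more genes of 15.8% and 22.3%, and start shares of 98.2% and 96.2%. With all genes of the table these shares were 30.5% and 96.5%. With starts only, 13.8% lay at 2 or more genes, and the start share has no value. For the gene lists, the number of served genes changed by over 1.5 times in 22 of 32 lists under the top 20%, 9 under the median score, 6 with starts only, 3 at 2 kb, 2 with strong H3K4me3 and 1 at 500 bp. Under the top 20%, 5 desmosomal and 2 envelope genes were served. Spelling the homeodomain core TAATTA moved its share of served windows from 4.25% to 1.75%, and either spelling gave 5.71%, chosen after seeing the data.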

Other observations

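Chromosome X had few DLX3 peaks of any kind, 153. Of these, 55 were of the class described here, 35.9% beside 20.3 to 32.7% on each autosome. With only 153 peaks this share is imprecise, and whether it differs from the upper autosomal values was not tested. Of its 966 coding genes, 60 were served, 6.21%, beside 22.4 to 31.9% on each autosome.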
